A study of Mus musculus with 4 samples.

Results

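The T cell receptor gene segments are the germline pieces from which each T cell assembles its antigen receptor. They were chosen by name and by measured counts from an RNA-seq gene table, as every row called Trav, Traj, Trac, Trbv, Trbd, Trbj, Trbc, Trgv, Trgj, Trgc, Trdv, Trdd, Trdj, Trdc or Tcrg- with at least 10 counts summed over the 4 libraries. Of 34745 genes in the table, 267 carried such a name and 144 passed the minimum. Another 54 had 1 to 9 counts and 69 had none. The study compared CD4+ T cells from the spleen of wild-type C57BL/6 mice in 4 states, with 1 library each. Th17 cells and Treg cells had been cultured for 3 days in polarising conditions, the cytokines of which are not listed in the labels. Th0 cells had 3 days of antibody stimulation of CD3 and CD28, and naive cells came straight from the spleen without culture. All 4 groups carried the wild-type genotype and none carried a transgene in the labels, which do not say how many animals each library came from.

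A receptor chain is built in the thymus by joining a variable (V) segment to a joining (J) segment, with a diversity (D) segment between them in beta and delta chains, and the joined exon is spliced to a constant (C) region. Most CD4+ T cells carry an alpha chain and a beta chain, which reach the surface only together with the CD3 proteins Cd3e, Cd3d, Cd3g and Cd247. Gamma delta T cells carry the other chain pair and mostly lack CD4. Each clone uses its own V and J, so the count of a segment in a mixed population reads how much RNA of the clones using it was present, plus any transcript of the unjoined locus.

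Some sequences show what the segment counts can and cannot tell. In GRCm38, J segments are short exons, and most encode a phenylalanine, a glycine, any residue and a glycine near their middle. That stretch was searched on both strands as the letters TTN, GGN, NNN and GGN in a row. A match was present in 57 of 74 Traj and Trbj rows (77.0%), always on the coding strand. TTN also covers leucine and the reading frame was not checked, so a match need not encode those residues. Capitals mark the match below. Traj2, Traj3 and Traj1 lie next to Trac, and Traj3 and Traj2 had the highest summed Traj counts. Traj18 is the J of the invariant natural killer T (NKT) cell receptor. Trbj2-5, Trbj2-6, Trbj1-6 and Trbj1-7 show J segments with and without the stretch. The letters come from the GENCODE vM21 transcripts, and all are on the plus strand.
Traj2 (chr14:54217836-54217901): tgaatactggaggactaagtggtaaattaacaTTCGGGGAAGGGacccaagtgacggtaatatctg
Traj3 (chr14:54217292-54217357): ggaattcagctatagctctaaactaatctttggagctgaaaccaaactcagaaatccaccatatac
Traj1 (chr14:54218814-54218842): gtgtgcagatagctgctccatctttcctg
Traj18 (chr14:54200777-54200842): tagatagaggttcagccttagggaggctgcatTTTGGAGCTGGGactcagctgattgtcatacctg
Trbj2-5 (chr6:41543453-41543501): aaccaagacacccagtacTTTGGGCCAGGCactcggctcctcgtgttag
Trbj2-6 (chr6:41543598-41543645): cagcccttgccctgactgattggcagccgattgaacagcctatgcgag
Trbj1-6 (chr6:41535554-41535606): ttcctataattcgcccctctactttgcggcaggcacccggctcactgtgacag
Trbj1-7 (chr6:41535642-41535687): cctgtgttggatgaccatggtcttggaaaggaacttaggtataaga
A missing match says only that these letters are not in the segment.

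The last 60 coding bases are shown for Trbv19 and Trbv13-2, which had the widest differences in usage, and for Trbv5 and Trbv13-3, which were called lower in Th0 than in naive, with capitals on the TGT of a TGTGC match, the codon of the cysteine that ends the framework before the joint. That match stood in the last 60 bases of 19 of 22 Trbv genes and 89 of 108 Trav genes. Trav11 and Trav11d, which encode the invariant NKT alpha chain, hold no such match and are printed as the example of copies that cannot be told apart. All are on the plus strand of GRCm38.
Trbv13-2 (chr6:41121773-41121832): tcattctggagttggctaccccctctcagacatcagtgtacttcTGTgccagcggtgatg
Trbv13-3 (chr6:41130526-41130585): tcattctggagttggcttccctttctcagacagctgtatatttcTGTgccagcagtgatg
Trbv19 (chr6:41178989-41179048): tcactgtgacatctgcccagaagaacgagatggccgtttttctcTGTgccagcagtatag
Trbv5 (chr6:41062744-41062803): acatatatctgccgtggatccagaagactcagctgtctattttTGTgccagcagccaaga
Trav11 (chr14:53519800-53519859): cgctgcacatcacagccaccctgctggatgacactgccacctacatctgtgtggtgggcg
Trav11d (chr14:52824853-52824912): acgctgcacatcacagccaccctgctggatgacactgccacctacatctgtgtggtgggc
Trbv13-2 and Trbv13-3 were 90.6% identical over their coding part, whereas the 342 coding bases of Trav11d lie whole within the 343 of Trav11.

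The members covered every beta V and J segment not annotated as a pseudogene, but only part of the alpha locus. Trav had 67 members of 128 rows, Traj 28 of 60, Trbv 23 of 35 and Trbj 14 of 14. Trac and both beta constant regions passed, as did 2 of 6 Trgv, 3 of 4 gamma constant regions, 3 of 6 Trdv and Trdc. No Trbd, Trdd, Trdj or Trgj row did. Just inside the minimum were Traj20, Traj25 and Traj30 at 10 counts and Traj16, Traj31 and Traj8 at 11. Just outside it were Trav20 and Trav9n-1 at 9 and Traj32 and Trav9d-4 at 8. Library totals were 12414372 counts in Th17, 10256627 in Treg, 10272122 in Th0 and 11901949 in naive, and 1 count was worth 0.0762 to 0.114 CPM, the count relative to the library total after scaling by the trimmed mean of M-values (TMM). The members took 14809 counts in Th17, 14533 in Treg, 13472 in Th0 and 19960 in naive.

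The CD3 complex and Cd4 were detected in all 4 libraries, Cd4 at 1001 CPM in Th17, 1199 in Treg, 959 in Th0 and 698 in naive. Rag2 and Ptcra (the pre-receptor alpha chain), which mark cells still joining segments, were at 0 counts in every library, and Rag1 had 4, 1, 0 and 4 counts in Th17, Treg, Th0 and naive. The naive library also held transcripts of other cells. Summed CPM of 12 B cell markers was 233 in Th17, 110 in Treg, 469 in Th0 and 3936 in naive. That of 11 macrophage and monocyte markers was between 32.5 and 51.9 in the cultured libraries and 4932 in naive, and that of 9 neutrophil markers at most 5.56 in the cultured libraries and 1529 in naive. Every marker of these 3 lists was above 0 in naive, and their part in the results below was not tested. With 1 library per state there was no test between states, and no p-value is given. All intervals are 95% intervals and cover counting error alone, and the labels mention no molecular identifiers.

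The alpha and beta constant regions were high in all 4 states and made up most receptor counts. Trac, the alpha constant region (chr14:54220521-54224206, plus strand), had 410 CPM in Th17, 425 in Treg, 454 in Th0 and 513 in naive. Trbc2 (chr6:41546730-41548352) had 242 CPM in Th17, 293 in Treg, 455 in Th0 and 394 in naive. Trbc1 (chr6:41538218-41539881), the other beta constant region, had 92.5 CPM in Th17, 128 in Treg, 132 in Th0 and 109 in naive. Naive had the highest Trac level. Th0 had the highest beta constant level with TMM, but the naive level was above it with library totals and when scaled to the CD3 complex. The beta constant regions together were 1.76-fold lower in Th17 than in Th0 (interval 1.69 to 1.83) and in Treg 1.39-fold below Th0 (1.34 to 1.45). Trac was 1.11-fold lower in Th17 than in Th0 with TMM (1.06 to 1.15), a direction that turned higher with library totals, barely so with upper quartile factors, and when scaled to the CD3 complex. Per CD3 complex count, Trac in Th17 was 1.22 times that in Th0 (1.16 to 1.28). Against TMM, scaling by library totals shifts every log2 ratio by 0.31 for Th17 over Th0, by 0.35 for Treg over Th0 and by -0.27 for Th0 over naive, and scaling to the CD3 complex shifts them by 0.43, 0.24 and -0.64 for the same comparisons and by 0.19 for Th17 over Treg. Upper quartile factors shift the first 3 by 0.15, 0.16 and -0.13.

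Summed over the 144 members, the receptor level was 1129 CPM in Th17, 1310 in Treg, 1542 in Th0 and 1630 in naive. It was 1.06-fold lower in Th0 than in naive (interval 1.03 to 1.08) and 1.37-fold lower in Th17 than in Th0 (1.33 to 1.40). The level in Treg was 1.18-fold below that in Th0 (1.15 to 1.20), a direction that turned higher with library totals and when scaled to the CD3 complex. The Th17 and Treg comparisons share the Th0 library. In bulk RNA, fewer cells of a type and less RNA per cell cannot be told apart. The plot of class levels shows that the order of the 4 libraries differed from class to class.

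**Figure D1:**
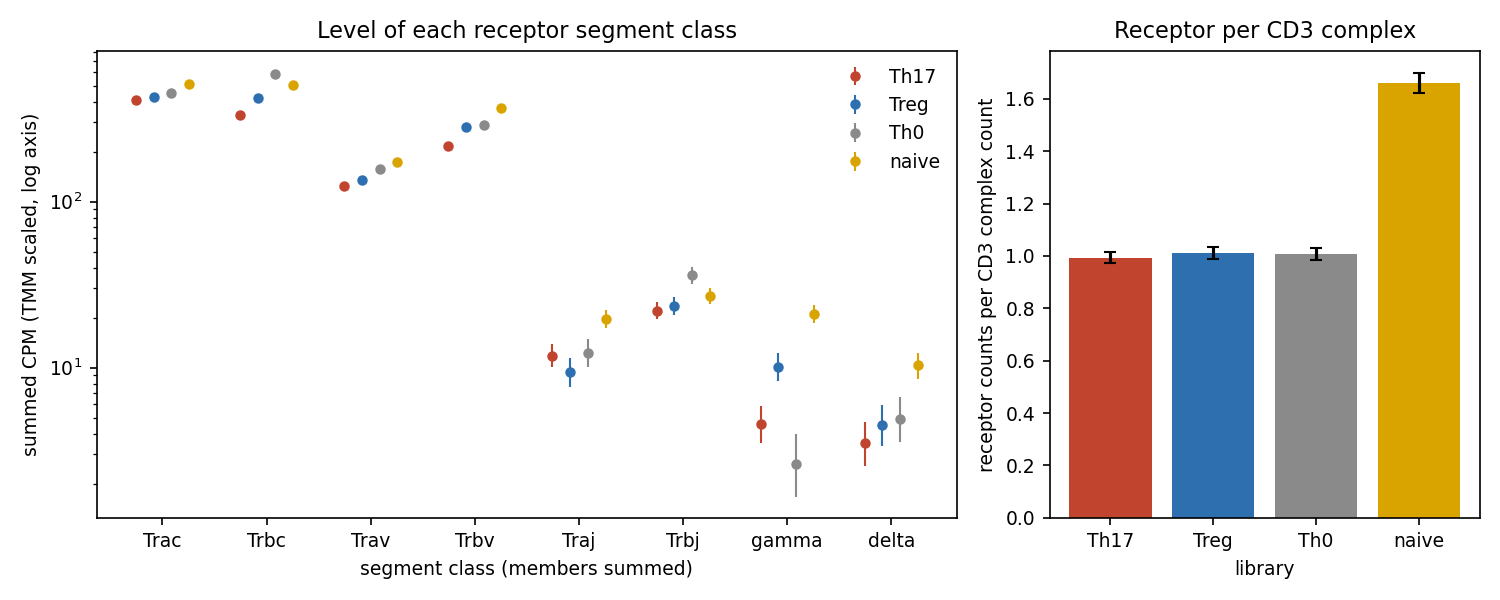
Left, summed CPM (TMM scaled, log axis) of the members of each segment class in the Th17, Treg, Th0 and naive libraries, with 95% Poisson intervals. Right, receptor counts per CD3 complex count in each library with 95% counting intervals, near 1 in the 3 cultured libraries and 1.66 in naive.

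Measured against the CD3 complex, the naive library stood apart from the cultured ones. Receptor counts per count of Cd3e, Cd3d, Cd3g and Cd247 were 0.994 in Th17, 1.01 in Treg, 1.01 in Th0 and 1.66 in naive. This ratio does not depend on library scaling. The ratio was 1.65-fold lower in Th0 than in naive, while Th17 over Th0 was 0.987 (interval 0.955 to 1.02) and Treg over Th0 was 1.003 (0.970 to 1.04). The near equality of the cultured libraries held for the summed complex but not for other denominators. Per Cd4 count the values were 1.13 in Th17, 1.09 in Treg, 1.61 in Th0 and 2.33 in naive, and per Cd3e count 5.49, 6.19, 4.04 and 8.07 in the same order. Naive was the highest by all 3 denominators. Within the complex, Cd3d was 240 CPM in Th17, 298 in Treg, 466 in Th0 and 176 in naive, and it was the only CD3 gene past the size rule (at least 2-fold on log2(CPM + 1), with the counting interval of the ratio excluding 1), higher in Th0 than in naive. Cd3g, in contrast, was lowest in Th0, at 342 CPM in Th17, 426 in Treg, 255 in Th0 and 295 in naive.

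The balance of the constant regions also differed between libraries. Among alpha and beta constant counts, beta took 44.9% in Th17 (interval 43.9 to 45.9), 49.8% in Treg (48.8 to 50.8), 56.4% in Th0 (55.4 to 57.4) and 49.5% in naive (48.6 to 50.4). Only Treg and naive overlapped. Trbc1 took 27.7% of the Trbc counts in Th17 (26.4 to 29.0), 30.4% in Treg (29.1 to 31.7), 22.5% in Th0 (21.4 to 23.7) and 21.6% in naive (20.6 to 22.6). Th17 and Treg were thus above Th0 and naive, and Th0 and naive overlapped. The first 259 of the 518 coding bases of Trbc1 and Trbc2 are identical, and 23 bases differ in the rest, so the split rests on reads that reach those bases or the untranslated ends. The last 120 coding bases, spliced, hold 19 of the 23 differences, marked with capitals (GRCm38, plus strand).
Trbc1 (chr6:41539234-41539662): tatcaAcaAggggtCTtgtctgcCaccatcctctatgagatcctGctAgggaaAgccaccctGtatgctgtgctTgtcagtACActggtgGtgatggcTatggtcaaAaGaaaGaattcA
Trbc2 (chr6:41547777-41548178): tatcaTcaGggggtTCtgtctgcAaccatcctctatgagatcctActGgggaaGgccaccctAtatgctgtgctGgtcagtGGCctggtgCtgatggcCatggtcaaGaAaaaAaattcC

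Each Trbc lies downstream of its own J cluster, and the split of the J counts is set beside that of Trbc. Trbj1 segments, upstream of Trbc1, took 58.8% of Trbj counts in Th17 (interval 52.9 to 64.6), 59.9% in Treg (53.7 to 65.9), 45.5% in Th0 (39.9 to 51.2) and 57.0% in naive (51.4 to 62.4). Th0 was the low library by this measure, without overlap with the other 3. Naive sat with Th0 in the Trbc1 share but with Th17 and Treg in the Trbj1 share. These shares also differed in size, with Trbc1 between 21.6% in naive and 30.4% in Treg. Whether the Trbj counts came from joined chains was not tested.

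V segments took 30.5% of the receptor counts in Th17 (interval 29.8 to 31.3), 32.1% in Treg (31.4 to 32.9), 29.1% in Th0 (28.3 to 29.9) and 33.3% in naive (32.6 to 34.0). Within the beta chain, of the Trbv and Trbc counts, Trbv took 39.4% in Th17, 40.05% in Treg, 32.9% in Th0 and 42.0% in naive, and the Th0 interval (31.8 to 34.0) overlapped no other. Of the Trav and Trac counts, Trav took 23.3% in Th17, 24.1% in Treg, 25.7% in Th0 and 25.1% in naive.

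With TMM scaling and 1 CPM added, few members passed the size rule in any comparison. The Th17 and Treg comparisons with Th0 share its library. For Th0 over naive, 115 of the 144 members had at least 10 counts in 1 of the 2 libraries, and 0 were called higher and 12 lower, where 18.5% of all 13995 genes tested were called higher and 27.2% lower. The median log2 ratio was -0.18 for the members tested and -0.13 for all genes tested. For Th17 over Th0, 0 of 102 members were higher and 7 lower, against 20.1% and 12.4% of all genes. For Treg over Th0, 3 of 100 were higher and 0 lower, against 20.2% and 12% of all genes. For Th17 over Treg, 0 of 105 members were called in either direction, against 1.91% higher and 1.24% lower. The 95% CPM intervals of the members did not overlap for 26 of 115 in Th0 over naive, where they did not for 76.6% of all genes tested. The same count was 21 of 102 in Th17 over Th0 (70.1% of all genes), 17 of 100 in Treg over Th0 (69.7%) and 10 of 105 in Th17 over Treg (30.3%). Whether the members' shares differ from those of all genes was not tested, and interval widths depend on the count. Adding 1 CPM also shrinks the log2 ratio of members at a few CPM. More members were called when 0.5 CPM was added, as given in the closing section.

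Gamma and delta segments were low in every library, and their sums were highest in naive. The 3 gamma constant members, both Trgv members and Trdc were among the 12 members lower in Th0 than in naive. Tcrg-C1 (chr13:19214103-19217024) had 1.14 CPM in Th17, 1.98 in Treg, 0.458 in Th0 and 6.45 in naive, from 15, 22, 4 and 79 counts. Tcrg-C1 was 14.1-fold lower in Th0 than in naive (interval 5.29 to 53.0). Tcrg-C4 had 0.762 CPM in Th17, 2.25 in Treg, 0.343 in Th0 and 5.39 in naive, and was 15.7-fold lower in Th0 than in naive (5.14 to 78.1). Tcrg-C2 had 1.45 CPM in Th17, 2.80 in Treg, 1.14 in Th0 and 4.98 in naive. All 3 were lowest in Th0 and highest in naive, with Treg above Th17, and their Th0 and Th17 intervals overlapped. Trdc, the delta constant region (chr14:54142851-54148868), had 2.67 CPM in Th17, 3.34 in Treg, 2.52 in Th0 and 7.68 in naive, and was 3.05-fold lower in Th0 than in naive (1.90 to 5.09).

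**Figure D2:**
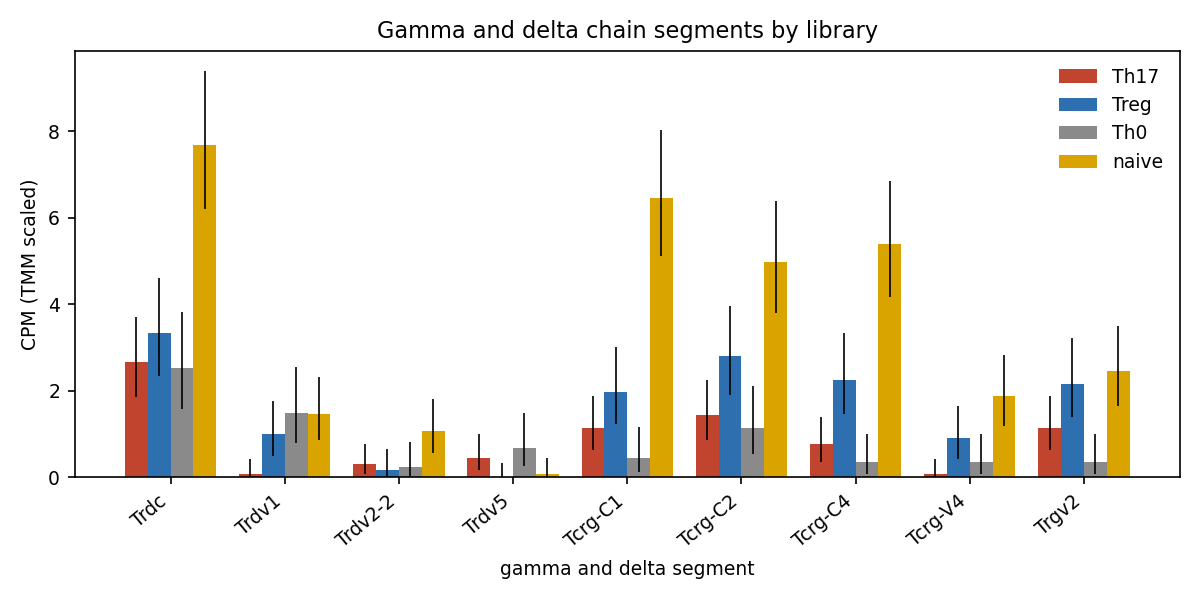
CPM (TMM scaled) of the 9 gamma and delta members in the Th17, Treg, Th0 and naive libraries, with 95% Poisson intervals. Naive holds the tallest bar for Trdc, Trdv2-2, all 3 gamma constant regions, Tcrg-V4 and Trgv2.

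Gamma chain RNA was higher in Treg than in Th0 or Th17. Trgv2 (chr13:19336573-19337167, minus strand), a gamma V segment, had 1.14 CPM in Th17, 2.16 in Treg, 0.343 in Th0 and 2.45 in naive. Trgv2, Tcrg-C4 and Tcrg-C1 were the 3 members called higher in Treg than in Th0, at 6.30-fold (interval 1.91 to 32.7), 6.56-fold (2.003 to 34.0) and 4.33-fold (1.47 to 17.3). The Th0 values of these segments rest on 3 or 4 counts each, and Tcrg-C1 just missed the call with DESeq2 size factors. The 5 gamma members summed to 4.57 CPM in Th17, 10.1 in Treg, 2.63 in Th0 and 21.2 in naive, and the intervals of Th17 and Treg did not overlap. The 4 delta members summed to 3.51 CPM in Th17, 4.51 in Treg, 4.92 in Th0 and 10.3 in naive, and the intervals of the 3 cultured libraries overlapped. Gamma and delta together took 0.716% of receptor counts in Th17 (0.586 to 0.865), 1.11% in Treg (0.9504 to 1.30), 0.490% in Th0 (0.379 to 0.623) and 1.93% in naive (1.74 to 2.13).

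Among the V segments of these chains, Tcrg-V4 had 1, 10, 3 and 23 counts in Th17, Treg, Th0 and naive. Tcrg-V5 and Tcrg-V6 had 3 counts each over all libraries, and Tcrg-V7 had 0. Trdv1 had 1 count in Th17, 11 in Treg, 13 in Th0 and 18 in naive, and was called lower in Th17 than in Th0 from that 1 count (ratio 0.0512, interval 0.00121 to 0.341). Trdv5 had 6, 0, 6 and 1 counts. It lies on the minus strand and overlaps Trdc, and whether reads were counted by strand is not given in the sources used here. Trbv21, on another chromosome, had the same count as Trdv5 in every library, and the reason was not tested. The NK genes Klrb1c and Ncr1 had 12 and 0 counts in Th17, 12 and 2 in Treg, 0 and 0 in Th0, and 149 and 59 in naive. These genes belong to a list of 10 CD8 T and NK cell markers, whose summed level was 207 CPM in Th17, 277 in Treg, 155 in Th0 and 136 in naive. In Th0 over naive, 1 of the 10 was higher and 4 were lower, where 18.5% of all genes tested were higher and 27.2% lower. Gzma, a granzyme of killer cells, made up most of the sum in Th17 and Treg, with 156 CPM in Th17, 190 in Treg, 44.2 in Th0 and 12.5 in naive. Of 7 NKT cell markers tested in Th0 over naive, 1 was higher and 4 were lower, beside the same shares of all genes. Their summed level was 883 CPM in Th17, 793 in Treg, 328 in Th0 and 405 in naive. Il2rb made up most of that sum, with 739 CPM in Th17, 694 in Treg, 203 in Th0 and 302 in naive. Klrb1c, Klrd1, Klrk1 and Zbtb16 of this list were highest in naive, Il2rb and Slamf1 in Th17, and Tbx21 in Th0. Cd8a, a CD8 T cell marker, had 18.1 CPM in Th17, 30.7 in Treg, 35.8 in Th0 and 34.1 in naive. The part of these other cells in the gamma and delta counts was not tested.

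Beta chain usage was broad in every library. The 23 Trbv members had an effective number (the exponential of the Shannon entropy of their shares, which equals the number of segments if all are used alike) of 17.3 in Th17, 16.7 in Treg, 17.95 in Th0 and 18 in naive. The top segment was Trbv19 in Th17 and Treg, at 10.4% and 11.8% of Trbv counts, and Trbv3 in Th0 and naive, at 12.04% and 9.97%. The 5 leading segments held 44.3% in Th17, 45.4% in Treg, 43.5% in Th0 and 41.2% in naive. All 22 Trbv rows annotated as genes rather than pseudogenes were members. Trbv24 was the only member among 13 Trbv pseudogenes, with 14 counts in Th17, 5 in Treg, 15 in Th0 and 18 in naive.

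**Figure D3:**
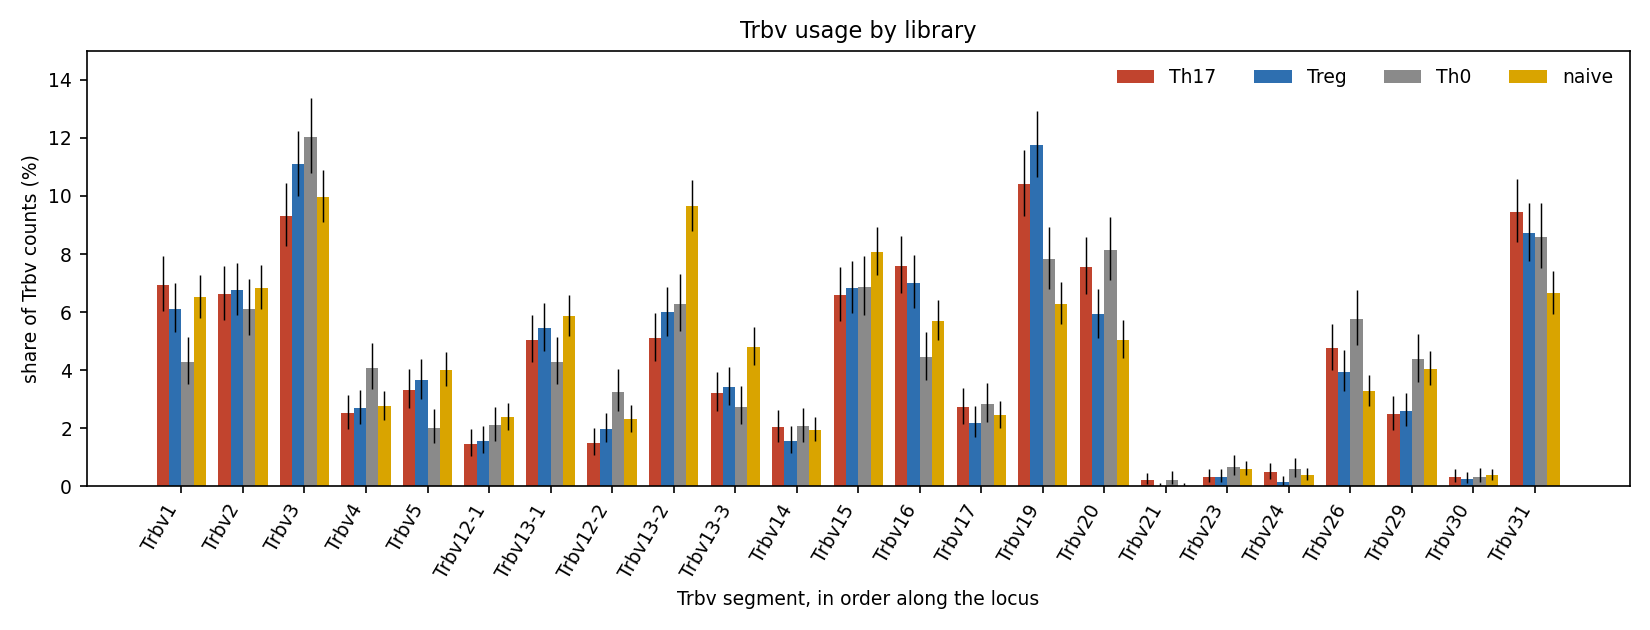
Share of Trbv counts (%) of each of the 23 Trbv members, in their order along the locus, in the Th17, Treg, Th0 and naive libraries, with 95% exact intervals. Trbv13-2 reaches 9.65% in naive, and Trbv19 reaches 10.4% in Th17 and 11.8% in Treg.

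Of the 6 pairs of libraries, Th17 and Treg lay closest in Trbv usage. The share that would have to move to turn the usage of Th17 into that of Treg was 6.20 percentage points, and 0 of 23 segments had intervals that did not overlap. A CPM interval is another measure than a share interval. By CPM, intervals of these libraries did not overlap for 5 of 21 Trbv members tested and 30.3% of all genes tested. Against Th0, Th17 stood at 12.2 points with 8 segments apart and Treg at 12.6 points with 9. Against naive, Th17 stood at 13.9 points with 8 segments, Treg at 11.5 with 5 and Th0 at 14.7 with 9. CPM intervals did not overlap for 13 of 22 Trbv members in Th17 over naive, where they did not for 70% of all genes. In Treg over naive it was 10 of 22 (68.4% of all genes). In Th17 over Th0, Treg over Th0 and Th0 over naive it was 9 of 21, 8 of 21 and 8 of 22. The shares of all genes for those pairs are given above. These pairs share libraries, and the labels do not say whether cultures started from the same animals.

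By counts, the widest difference between any pair of libraries was in Trbv19, and by the authors' FPKM it was in Trbv13-2, between naive and Th17 (5.48 points). Trbv19 had 10.4% of Trbv counts in Th17 (interval 9.30 to 11.6), 11.8% in Treg (10.6 to 12.9), 7.83% in Th0 (6.81 to 8.95) and 6.29% in naive (5.59 to 7.04). Treg exceeded naive by 5.47 points, and Th17 and Treg lay above Th0 and naive without overlap. As a level, Trbv19 had 22.6 CPM in Th17, 33.1 in Treg, 22.6 in Th0 and 22.9 in naive, so that Treg alone stood out. Trbv13-2, a V segment much used by NKT cells, ran the other way, with 5.11% in Th17 (4.33 to 5.98), 5.99% in Treg (5.18 to 6.88), 6.28% in Th0 (5.36 to 7.30) and 9.65% in naive (8.80 to 10.6). Naive alone stood apart there. Trbv29 and Trbv1, named under the same rule for NKT and MAIT segments, did not follow it. Trbv29 took 2.49% in Th17, 2.60% in Treg, 4.37% in Th0 and 4.04% in naive. Trbv1 took 6.93% in Th17, 6.12% in Treg, 4.29% in Th0 and 6.51% in naive. In neither was naive apart from every other library. The Trbv13 family as a whole took 13.4% in Th17, 14.9% in Treg, 13.3% in Th0 and 20.3% in naive. Trbv31, which lies inverted downstream of Trbc2, took 9.45% in Th17, 8.72% in Treg, 8.59% in Th0 and 6.64% in naive, and naive was again the library apart. Trbv3 took 9.31% in Th17, 11.1% in Treg, 12.04% in Th0 and 9.97% in naive, and Trbv15 between 6.58% in Th17 and 8.08% in naive. Trbv20 took 7.56% in Th17, 5.93% in Treg, 8.15% in Th0 and 5.05% in naive.

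Trbv5, a V segment with no close copy, had 95 counts in Th17, 114 in Treg, 51 in Th0 and 179 in naive, or 7.24, 10.3, 5.84 and 14.6 CPM, and was 2.50-fold lower in Th0 than in naive (interval 1.83 to 3.49). Trbv13-3 had 7.01 CPM in Th17, 9.65 in Treg, 7.90 in Th0 and 17.5 in naive, and was 2.21-fold lower in Th0 than in naive (1.68 to 2.95). These were the 2 Trbv segments called lower in that comparison. Trbv16 took 7.598% of Trbv counts in Th17, 7.02% in Treg, 4.45% in Th0 and 5.70% in naive. In Th17 over Th0, Trbv12-2 was 2.86-fold lower (3.28 against 9.39 CPM, interval 1.957 to 4.25) and Trbv29 2.33-fold lower (5.41 against 12.6 CPM, 1.71 to 3.18). Neither call was made once the libraries were scaled to the CD3 complex, and Trbv29 also lost it with library totals, upper quartile factors and FPKM.

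Trav usage was spread over many segments. The effective number of Trav segments was 51.2 in Th17, 54.4 in Treg, 51.1 in Th0 and 53.6 in naive, of 67 members, and no segment took more than 4.51% of Trav counts. Trav7-4 had 73 counts in Th17, 53 in Treg, 52 in Th0 and 95 in naive. Trav14d-3-dv8 had 63, 58, 48 and 81 counts in the same order, Trav4-4-dv10 62, 51, 57 and 64, and Trav3-3 60, 46, 51 and 68. The intervals of the share overlapped between all libraries for these 4 segments. Trav6-7-dv9 took 4.34% of Trav counts in Th17, 2.60% in Treg, 4.15% in Th0 and 2.61% in naive, and Trav14-2 took 2.75%, 3.47%, 2.47% and 4.37%. Between Th17 and Treg, 0 of 67 Trav segments had share intervals that did not overlap, and between Th0 and naive, 7 did. The remaining pairs had 3 or 4. Unlike in Trbv, the closest pair in Trav usage was Treg and naive, at 12.1 points, with Th17 and Treg at 12.4. By CPM, intervals did not overlap for 0 of 58 Trav members tested in Th17 over Treg, against 30.3% of all genes. In Th0 over naive it was 8 of 58, against 76.6% of all genes.

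The called Trav members had at most 58 counts in either library compared. Lower in Th0 than in naive were Trav16n (14 against 58 counts), Trav16d-dv11 (2 against 30), Trav15-2-dv6-2 (2 against 20) and Trav10d (0 against 13). The Trav16 family, 3 copies that are 96.6% to 97.7% identical, took 4.40% of Trav counts in Th17, 4.93% in Treg, 2.33% in Th0 and 6.69% in naive. Trav16, the remaining copy, was not called, at 2.82 CPM in Th17, 4.15 in Treg, 1.83 in Th0 and 4.33 in naive. Lower in Th17 than in Th0 were Trav8-1 (19 against 40 counts), Trav9n-4 (6 against 22), Trav13n-4 (5 against 16) and Trav13-3 (0 against 10). Of these 4, only Trav9n-4 was still called when the libraries were scaled by totals or to the CD3 complex. Trav13-3 is annotated as a pseudogene, as is Trav8-2, which had 43 counts in Th17, 32 in Treg, 19 in Th0 and 17 in naive.

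Which Trav rows had counts followed how much sequence a row had to itself. The mouse Trav region holds large duplications, whose copies carry a d or an n in the name. Of the 108 Trav rows annotated as genes rather than pseudogenes, 35 had no window of 50 bases that was absent from every other receptor segment. All 35 were at 0 counts in all 4 libraries. Of 31 with some but under 50% such windows, 4 were at 0 and 25 were members. Of 42 with at least 50%, 1 (Trav23) was at 0 and 40 were members. All 38 genes whose closest copy was identical were at 0. For a row with no sequence of its own, 0 counts do not show that the segment was not transcribed. The 50-base window was chosen without knowledge of the read length, which is not given in the sources used here.

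**Figure D4:**
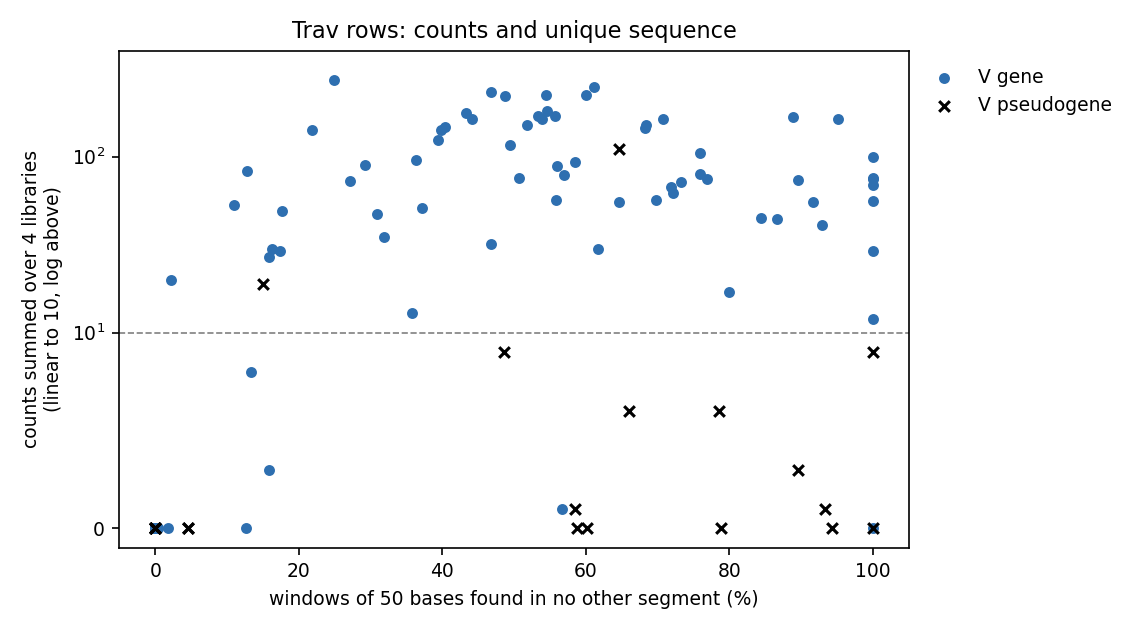
Counts summed over the 4 libraries (linear to 10, log above) of all 128 Trav rows against the share of their windows of 50 bases found in no other receptor segment (%). The dashed line is the minimum of 10 counts, and the points at 0% all lie at 0 counts.

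The invariant receptors of NKT and mucosal-associated invariant T (MAIT) cells were covered in part. Trav11 and Trav11d had no unique window and 0 counts in all libraries, while the pseudogene copy Trav11n, 97.7% identical to Trav11, had 0 counts in Th17, 2 in Treg, 0 in Th0 and 4 in naive. Traj18, the J of the NKT chain, had 6 counts in Th17, 4 in Treg, 3 in Th0 and 7 in naive, close to its neighbours Traj19 (6, 4, 3 and 9) and Traj17 (3, 3, 5 and 9). Trav1, the V segment of the MAIT chain, had 13 counts in Th17, 15 in Treg, 9 in Th0 and 19 in naive, and Traj33, its J, had 1, 2, 2 and 1. The d copies took 15.2% of Trav counts in Th17, 14.1% in Treg, 11.6% in Th0 and 14.6% in naive. The n copies took between 11.5% in Th17 and 13.3% in Th0. No unique window was present in 19 of 39 d rows and 17 of 34 n rows, against 3 of 55 other Trav rows. These shares therefore do not show how much the copies were used.

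Joining segments had few counts, and those of Traj followed position in the locus. Traj counts were higher nearer to Trac in every library, as the plot of Traj counts by distance shows. The 20 Traj rows nearest to Trac held 63.2% of Traj counts in Th17 (interval 56.0 to 70.0), 61.8% in Treg (52.9 to 70.2), 63.3% in Th0 (54.7 to 71.3) and 72.9% in naive (67.3 to 78.0). All 20 of them were members, against 8 of the middle 20 and 0 of the far 20. Membership rests on the same counts, so it adds nothing to the pattern. Spearman's rho between the counts of the 60 rows and their distance to Trac was -0.88 in Th17, -0.83 in Treg, -0.86 in Th0 and -0.90 in naive, as a description of rows that share a library and a locus.

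**Figure D5:**
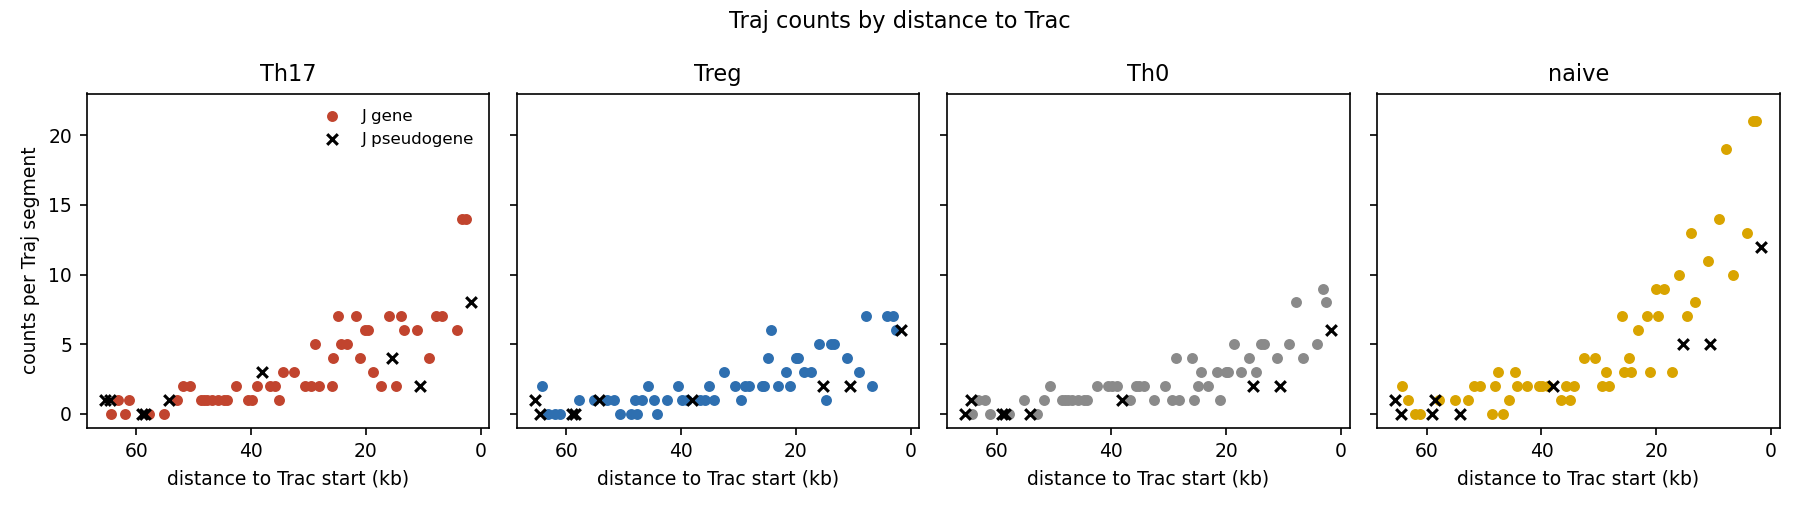
Counts of each of the 60 Traj rows against its distance to the start of Trac (kb, Trac to the right) in the Th17, Treg, Th0 and naive libraries, with J pseudogenes as crosses. Traj3 and Traj2, nearest to Trac but for Traj1, reach 14 counts in Th17 and 21 in naive.

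The rows with high Traj counts included segments without the J stretch searched for. Traj3 had 14 counts in Th17, 7 in Treg, 9 in Th0 and 21 in naive and lacks it. Traj2, which holds it, had 14, 6, 8 and 21. Traj1, a pseudogene of 29 bases, had 8, 6, 6 and 12. Traj6 had 7, 7, 8 and 19 counts, Traj4 had 6, 7, 5 and 13, and Traj12 had 7, 5, 5 and 13. Of the 9 Traj pseudogenes, 3 were members. The stretch was found in 22 of 28 Traj members and in 24 of the 32 other Traj rows.

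The Trbj counts showed the same feature. Trbj2-6, the only Trbj pseudogene, had 26 counts in Th17, 20 in Treg, 37 in Th0 and 23 in naive, or 1.98, 1.80, 4.24 and 1.88 CPM. In Th17, Treg and Th0 it had the highest count of the Trbj2 cluster, above Trbj2-5 at 22, 19 and 34. Trbj1-7 had 23, 19, 19 and 26 counts in Th17, Treg, Th0 and naive, and Trbj1-6 had 26, 26, 22 and 35, both without the stretch. Trbj1-4 had 26, 28, 19 and 33 counts, Trbj1-3 29, 22, 24 and 27, Trbj1-2 28, 24, 25 and 24, and Trbj1-5 22, 23, 21 and 31. Segments with and without the stretch had counts of similar size. In Trbj as in Traj, 0 segments had share intervals that did not overlap between any pair of libraries. At such low counts the intervals are wide, so overlap does not show equal usage. By CPM, Trbj intervals did not overlap for 3 of 14 in Th17 over Th0, against 70.1% of all genes. In Treg over Th0 it was 2 of 14 (69.7% of all genes), and in Th0 over naive 1 of 14 (76.6%). In Th17 over Treg it was 0 of 14 (30.3%).

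The genes that join and regulate the loci, taken as lists, passed the rule in both directions. Of 10 recombination genes tested in Th0 over naive, 1 was higher and 1 lower, where 18.5% of all genes were higher and 27.2% lower. Dntt, which adds bases at the joint, had 7.39 CPM in Th17, 5.95 in Treg, 2.29 in Th0 and 6.61 in naive, and was lower in Th0 than in naive and higher in Th17 and Treg than in Th0. Hmgb2, a chromatin protein that aids the cut, had 139 CPM in Th17, 169 in Treg, 315 in Th0 and 108 in naive. In Th17 over Th0 the counts were 1 higher and 2 lower (20.1% and 12.4% of all genes), in Treg over Th0 1 and 1 (20.2% and 12%), and in Th17 over Treg 0 and 0 (1.91% and 1.24%). The 13 locus regulators gave 3 higher and 2 lower in Th0 over naive, 2 and 4 in Th17 over Th0, 1 and 4 in Treg over Th0, and 0 and 0 in Th17 over Treg, to be read beside the same shares of all genes. Tcf7, a factor that binds the alpha enhancer, had 499 CPM in Th17, 621 in Treg, 1517 in Th0 and 996 in naive. Ets1, which also binds there, had 1221 CPM in Th17, 1124 in Treg, 487 in Th0 and 1265 in naive. Th0 was thus the highest library for Tcf7 and the lowest for Ets1.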

How the data were processed

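One RNA-seq library per state was analysed, each from a CD4+ T cell sample grouped by its labelled cell type. The deposited table gives whole-number read counts and FPKM per gene, per the file headers. The submitters' processing notes name Bowtie2, RSEM, GRCm38.p6 and mm10, without versions; for read length, strandedness and annotation nothing is given in the sources used here. The authors' FPKM served only as an alternative.

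Counts were divided by the library total times a TMM factor (edgeR 4.0.16, R 4.3.3) from genes with at least 10 counts in 1 library, giving CPM. A gene was called when log2(CPM + 1) differed by at least 1 and a 95% counting interval of the ratio, computed as an exact conditional binomial one, left out 1, among genes with at least 10 counts in 1 of the 2 libraries. Shares carry exact Clopper-Pearson intervals, and levels carry exact Poisson intervals; the interval of a ratio to CD3 counts uses the log scale. Annotation and sequences are GENCODE vM21, whose coordinates and strand were the same as the table's for all 267 rows. DESeq2 1.42.0 size factors were an alternative. FPKM implied a length within 2% of the annotated exon length for 157 of 198 rows. Sequence identity came from edlib 1.3.9.post1.

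The members and lists were chosen with earlier results of these data known. Named were every constant region, up to 6 leading segments per class, up to 6 called members per comparison and direction with at least 5 CPM, NKT and MAIT segments, and members at the minimum; other called segments, pseudogenes and neighbours were named after their values were seen. A list of gamma delta T cell markers is not reported here.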

Additional observations from a re-analysis of the deposited data

How the results depend on the processing

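No paired analysis was possible because each state has 1 library, and for the same reason no replicate could be left out. Of 158 values recomputed under the alternatives, 89 stayed the same, 67 moved and 2 reversed; the calls scaled to the CD3 complex and the Cd4 and Cd3e denominators were chosen after seeing the data. For members lower in Th0 than in naive, the 12 became 20 with library totals, 19 with a 0.5 CPM pseudocount, 26 with FPKM and 27 scaled to CD3, and 1 was higher at 0.5 CPM. For Th17 over Th0, the 7 lower became 3 with totals, 11 at 0.5 CPM, 4 with a minimum of 20 counts and 2 scaled to CD3, and 1 was higher at 0.5 CPM and 2 with FPKM. For Treg over Th0, the 3 higher became 7 with totals, 5 at 0.5 CPM and 9 with FPKM, and 3 were lower at 0.5 CPM and 1 with FPKM. For Th17 over Treg, 3 were lower at 0.5 CPM and 4 with FPKM. The shares of all genes called were not counted under these settings. Whether these member counts are many or few beside all genes therefore cannot be read here.

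The summed log2 ratio of Th0 over naive, -0.08 with TMM, was -0.35 with totals, -0.21 with upper quartile factors, -0.72 scaled to CD3 and -0.28 for V segments only. That of Th17 over Th0, -0.45, was -0.14, -0.30, -0.019 and -0.38 under these settings and -0.51 with DESeq2 size factors. That of Treg over Th0, -0.23, reversed to 0.11 with totals and 0.00398 scaled to CD3, and was -0.077, -0.31 and -0.091 with upper quartile factors, DESeq2 factors and V segments only. That of Th17 over Treg, -0.22, was -0.023 scaled to CD3 and -0.29 for V segments only. In these settings the cause was not tested.

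By FPKM, in the order Th17, Treg, Th0 and naive, V segments took 34.5%, 37.2%, 32.1% and 37.8%, gamma and delta segments 0.389%, 0.666%, 0.278% and 1.04%, and Trbc1 23.6%, 26.1%, 19.1% and 18.2% of Trbc. The effective number of Trav was 48.996, 52.2, 48.9 and 51.8 by FPKM and 37.8, 39.4, 37.7 and 38.4 with near-identical segments summed. With every row of at least 1 count it was 56.2 in Treg and 55.02 in naive, and that of Traj was 40.04, 40.03, 41.04 and 36.03. The effective number of Trbv in naive was 17.5 by FPKM. Receptor counts were 1.13, 1.09, 1.61 and 2.33 per Cd4 count and 5.49, 6.19, 4.04 and 8.07 per Cd3e count. Of the 22 calls of members, 4 lost the call with totals, 2 with upper quartile factors, 1 with DESeq2 factors, 4 with a minimum of 20 counts, 1 with FPKM and 5 scaled to CD3, and none changed direction.

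With 1 library per state, differences between states and between cultures cannot be told apart. Gamma, delta and J segments rest on few counts, and a Trav row without sequence of its own cannot be read.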
